A study of Mus musculus with 18 samples.

Results

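The Polycomb complex genes described here are 10 genes chosen by name from the 24369 genes of the deposited expression table, *Ezh1*, *Ezh2*, *Eed*, *Suz12*, *Jarid2*, *Mtf2*, *Phf19*, *Ring1*, *Rnf2* and *Kdm2b*. All 10 were found by symbol, and all 10 passed the low-count filter in both experiments. They were measured by RNA-seq in E14 mouse embryonic stem cells (mESCs) that carry Cas9 in the *Rosa26* locus and a destabilised GFP reporter in 1 allele of *Rex1*, a naive pluripotency gene listed as *Zfp42* (genotype Rex1GFPd2-Cas9, shared by all 18 libraries). In the time course, wild-type cells were taken on days 0, 1, 2 and 3 of differentiation, with 3 libraries per day. In the other experiment, GFP+ cells, which express the reporter, were sorted from wild-type, *Nprl2* KO (Nprl2-/-) and *Tsc2* KO (Tsc2-/-) cultures kept in serum and LIF on feeder fibroblasts, with 2 libraries per genotype. *Nprl2* encodes a subunit of Gator1 and *Tsc2* a subunit of the Tsc complex, and both complexes restrain the growth kinase mTORC1. Each KO was made by deleting an essential exon on both alleles with a pair of guide RNAs and picking clones. The labels do not say whether replicate libraries came from separate cultures or clones, so p-values measure the spread between these libraries, which may be technical.

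Polycomb proteins keep developmental genes silent and work in 2 kinds of complex. Polycomb repressive complex 2 (PRC2) methylates histone H3 on lysine 27, through the enzyme Ezh2 or its relative Ezh1 together with the core subunits Eed and Suz12, and accessory subunits such as Jarid2, Mtf2 and Phf19 direct it to chromatin. PRC1 ubiquitinates histone H2A through Ring1 or Rnf2 (Ring1b), and Kdm2b brings a variant form of PRC1 to unmethylated CpG islands through its CXXC domain. In mESCs these complexes occupy the promoters of lineage regulators, and cells that lack PRC2 self-renew but differentiate abnormally.

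The total of estimated counts per library was between 12503005 and 15305054 in the time course and between 8610357 and 13780861 in GFP+ cells. The deletions were visible in the targeted genes. *Nprl2* was at 16.1 and 17.0 TPM (transcript abundance scaled for length and library size) in wild-type against 8.09 and 8.65 TPM in *Nprl2* KO, and *Tsc2* was at 45.0 and 44.9 TPM in wild-type and at 18.8 and 20.3 TPM in *Tsc2* KO. *Pou5f1*, a marker of pluripotent cells, had a mean between 1233 and 1845 TPM in all 7 groups, and *Zfp42* fell from a mean of 775.2 TPM on day 0 to 12.8 TPM on day 3. Between the same days, mean TPM also fell for *Sox2* (456.1 to 56.1), *Nanog* (782.2 to 127.1), *Esrrb* (402.8 to 1.4) and *Klf4* (195.6 to 2.7). It rose for the other markers on that list, *Fgf5* (0.36 to 63.5), *Otx2* (13.9 to 77.4) and *Dnmt3b* (100.4 to 1062). The summed level of 10 feeder fibroblast markers was between 10.7 and 46.0 TPM in the time course, between 119 and 167 TPM in wild-type GFP+ cells, between 124 and 127 TPM in *Nprl2* KO and at 43.3 and 150 TPM in *Tsc2* KO. Of these markers, *Lum* had a mean at or under 0.15 TPM in every group. The others went both ways over the time course, so the sum hides opposite changes. For example, *Thy1* rose from a mean of 4.38 TPM on day 0 to 30.1 TPM on day 3, while *Col1a1* fell from 4.20 to 1.17 TPM. In bulk RNA, fewer cells of a type and less RNA per cell cannot be told apart.

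The 2 transcripts of *Kdm2b* moved in opposite directions during differentiation while the TPM of the whole gene overlapped between days 0 and 3. The files hold a long RefSeq transcript (NM_001003953.2) and a short one (NM_013910.2). Both lie on the minus strand of chromosome 5 and are annotated in GENCODE M21. The long transcript starts at 122989099 (GRCm38) and has 23 exons. The short one starts 88744 bases downstream, at 122900355, within intron 12 of the long one, and has 12 exons. The long transcript has 3927 coding bases, of which 1653 are its own, and the short one has 2328, of which 54 are its own. The upstream exons encode the JmjC demethylase domain of Kdm2b, and the CXXC domain that binds CpG islands is kept in both forms. Since the 2 transcripts begin at separate places, the RefSeq sequence around each start (250 bases before to 50 after, GRCm38.p6, minus strand) is shown, with every CG dinucleotide in capitals. The long start is chr5:122989050-122989349 and the short start is chr5:122900301-122900600, the latter placed 5 bases from the GENCODE start.
Kdm2b long start: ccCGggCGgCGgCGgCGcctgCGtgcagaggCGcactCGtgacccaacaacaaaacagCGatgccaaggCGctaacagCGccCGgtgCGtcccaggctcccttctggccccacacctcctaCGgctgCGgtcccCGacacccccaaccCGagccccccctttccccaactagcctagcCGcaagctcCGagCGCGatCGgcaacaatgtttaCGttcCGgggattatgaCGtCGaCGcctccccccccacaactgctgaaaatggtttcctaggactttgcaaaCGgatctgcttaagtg
Kdm2b short start: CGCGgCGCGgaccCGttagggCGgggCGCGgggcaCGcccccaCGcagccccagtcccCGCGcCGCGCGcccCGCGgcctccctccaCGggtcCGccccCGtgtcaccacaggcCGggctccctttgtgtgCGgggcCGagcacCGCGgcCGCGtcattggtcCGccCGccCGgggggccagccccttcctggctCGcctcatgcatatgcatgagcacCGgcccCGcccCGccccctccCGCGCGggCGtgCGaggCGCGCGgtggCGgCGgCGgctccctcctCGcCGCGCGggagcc
The long start holds 28 CG dinucleotides and the short start 49. Among 32851 promoters of the same length the median was 7, and 14.2% held at least 28 and 1.02% at least 49. The count is on 1 strand, since CG reads the same on both, and it describes the letters only.

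On day 0 the short transcript of *Kdm2b* was at 55.1, 50.4 and 56.3 TPM, and the long one at 20.2, 19.9 and 22.5 TPM. On day 1 the order was the other way in every library, with the short transcript at 41.4, 43.0 and 45.6 TPM and the long one at 66.7, 68.3 and 67.9 TPM. On day 3 the short transcript was at 18.6, 9.15 and 12.6 TPM and the long one at 57.3, 64.4 and 65.4 TPM. The libraries of day 0 and day 3 did not overlap for either transcript. The long transcript thus made up a mean of 27.9% of *Kdm2b* TPM on day 0 (26.9% to 28.6%), 61.0% on day 1 (59.9% to 61.7%), 82.1% on day 2 (79.8% to 86.6%) and 82.3% on day 3 (75.5% to 87.6%). Days 2 and 3 overlapped. In a fit across all transcripts, chosen after these values had been seen, the long transcript rose by a log2 fold change of 1.74 ± 0.06 (SE) from day 0 to day 1 (edgeR quasi-likelihood, Benjamini-Hochberg adjusted p = 4.2e-08), when 18.5% of the 19724 transcripts tested were called higher. The short one changed by -0.27 ± 0.23 in that step, which did not pass the test (adjusted p = 0.41 in edgeR), and then fell by 1.68 ± 0.24 from day 1 to day 2 (adjusted p = 0.00049 in edgeR), when 17.6% of transcripts were called lower. In TPM, all 3 day 1 libraries of the short transcript lay below those of day 0. The difference in share was tested directly with edgeR's test of transcript shares within genes, over 3382 genes with at least 2 transcripts. *Kdm2b* passed it for day 3 against day 0 (edgeR adjusted p = 3.7e-09), a comparison in which 7.69% of those genes passed, and for day 2 against day 1 (edgeR adjusted p = 0.00025; 5.35% passed), and did not for day 3 against day 2 (edgeR adjusted p = 1; 1.18% passed). kallisto divides reads of the 3325 shared bases between the transcripts, and its uncertainty does not enter these tests.

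**Figure D1:**
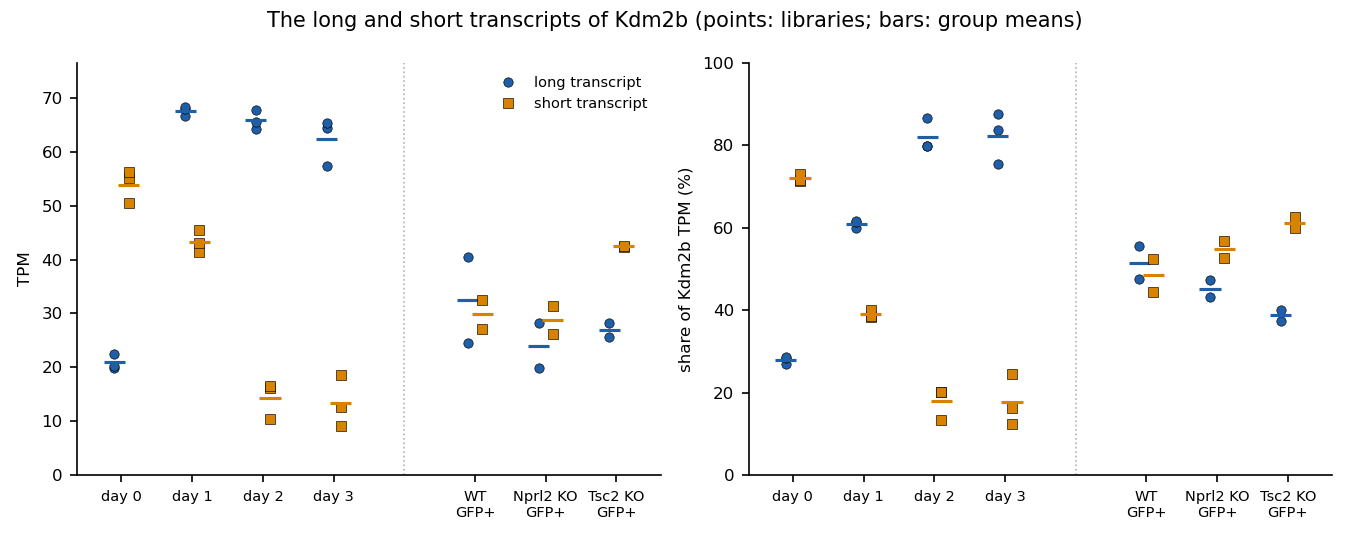
TPM (left) and share of *Kdm2b* TPM in percent (right) of the long transcript (circles) and the short transcript (squares) in each of 18 libraries, with group means as bars. The long transcript rises from a mean share of 27.9% on day 0 to 82.3% on day 3, and GFP+ cells lie between 37.5% and 55.5%.

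In GFP+ cells the long transcript of *Kdm2b* made up 55.5% and 47.5% of the gene's TPM in wild-type, between 43.1% and 47.4% of it in *Nprl2* KO, and between 37.5% and 40.0% in *Tsc2* KO. Both *Tsc2* KO libraries lay below both wild-type libraries, but the test of shares did not pass (edgeR adjusted p = 0.37; 2.22% of 3150 genes passed), nor did it for *Nprl2* KO (edgeR adjusted p = 0.8; 1.37% passed). The short transcript was at 42.3 and 42.6 TPM in *Tsc2* KO and at 32.5 and 27.2 TPM in wild-type, which differ by 0.47 ± 0.12 on the log2 scale with an edgeR adjusted p of 0.088 and a DESeq2 adjusted p of 0.0063. Transcript length minus effective length follows the fragment length that kallisto used. It was the same, 179, in every time-course library, and between 169.6 and 227.9 in GFP+ cells, where each library had its own value. Whether a fixed length was set for the time course is not given in the sources used here. Shares are therefore not compared between the experiments.

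Over the time course, the question was how far the 10 genes moved as cells left naive pluripotency. By day 3, 6 of the 10 were lower than on day 0 and 2 were higher at an adjusted p under 0.05 (edgeR quasi-likelihood, Benjamini-Hochberg over 14382 genes). Of all genes tested, 35.9% were called lower and 35% higher, so that many genes moved. The median log2 fold change was -0.26 for the 10 genes and -0.01 for all genes. The PRC2 core subunits *Eed* and *Suz12* and the accessory subunit *Mtf2* fell most, by 0.99 to 1.69 on the log2 scale, and the enzyme *Ezh2* fell by 0.14. The *Ezh2* fall lost its call under 5 alternatives. *Kdm2b*, among the 2 called higher, lost its call with limma on log2(TPM + 1).

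*Eed*, which binds methylated lysine 27 and stimulates the enzyme, was at 221, 215 and 248 TPM on day 0. It was at 128, 127 and 135 TPM on day 1, at 86.4, 92.4 and 80.8 TPM on day 2, and at 71.2, 75.7 and 77.8 TPM on day 3. No library of a later day reached any of an earlier one, and the log2 fold change was -0.74 ± 0.07 (SE) on day 1, -1.44 ± 0.07 on day 2 and -1.69 ± 0.07 on day 3 (edgeR adjusted p = 6.5e-14 for day 3). *Eed* went from the highest of the 10 by mean TPM on day 0 to the fourth on day 3. *Suz12*, the subunit that holds PRC2 together, was at 132, 140 and 141 TPM on day 0 and at 74.3, 72.4 and 73.5 TPM on day 3. Its change on day 1, -0.12 ± 0.06, did not pass (edgeR adjusted p = 0.11), although its day 1 libraries, at 119, 119 and 126 TPM, lay below all of day 0. It was called lower on day 1 with upper-quartile normalization (edgeR adjusted p = 0.046), when only the groups compared were fitted (edgeR adjusted p = 0.039) and with limma (adjusted p = 0.013). It then fell to -0.84 ± 0.06 on day 2 and -0.99 ± 0.06 on day 3 relative to day 0 (edgeR adjusted p = 3.1e-11 for day 3).

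*Ezh2*, the main methyltransferase of dividing cells, was at 138, 133 and 127 TPM on day 0, at 156, 150 and 157 TPM on day 1, and at 132, 123 and 128 TPM on day 3. It rose by 0.29 ± 0.06 on day 1 on the log2 scale (edgeR adjusted p = 0.00033) with no overlap between libraries. Its fall by 0.14 ± 0.06 on day 3 (edgeR adjusted p = 0.037) did not hold under 5 alternatives, nor without any of 4 libraries in turn (day 0 libraries 1 and 2, day 3 libraries 2 and 3), and the TPM of both days overlapped. With the falls of *Eed*, *Mtf2* and *Suz12*, *Ezh2* went from the fourth to the highest of the 10 by mean TPM. The ratio of *Ezh2* to *Eed* TPM was between 0.513 and 0.626 on day 0 and between 1.63 and 1.85 on day 3, ranges that do not overlap, given here without a test. The summed TPM of 10 proliferation markers was between 2727 and 2752 on day 0, between 3494 and 3583 on day 1 and between 2677 and 2820 on day 3, and its part in the *Ezh2* rise was not tested.

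*Ezh1*, the less active methyltransferase found more in resting cells, was at 15.1, 16.0 and 11.5 TPM on day 0, at 11.6, 10.7 and 10.7 TPM on day 1, at 20.3, 18.6 and 19.4 TPM on day 2, and at 15.6, 14.0 and 16.4 TPM on day 3. It was lowest on day 1 and highest on day 2, and the step between them was 0.70 ± 0.10 on the log2 scale (edgeR adjusted p = 6.6e-06). Its level on day 3 overlapped that of day 0. The fall on day 1, by 0.30 ± 0.10, overlapped day 0 and lost its call without any of 4 libraries in turn (day 0 libraries 1 and 2, day 1 libraries 2 and 3), with edgeR adjusted p between 0.056 and 0.11. *Ezh2* TPM was between 13.5 and 14.7 times that of *Ezh1* on day 1 and between 5.98 and 7.21 times on day 2.

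Of the accessory subunits, *Mtf2* fell with the core and *Jarid2* peaked on day 1. *Mtf2*, a Polycomb-like protein that binds CpG-rich DNA, was at 193, 197 and 175 TPM on day 0, at 170, 158 and 166 TPM on day 1, at 105, 108 and 85.3 TPM on day 2 and at 61.6, 68.0 and 67.4 TPM on day 3. Its change was -0.13 ± 0.08 on day 1 (edgeR adjusted p = 0.16, and 0.033 when only the groups compared were fitted), with no overlap in TPM, and it fell by 0.96 ± 0.08 on day 2 and by 1.59 ± 0.08 on day 3 (edgeR adjusted p = 3.3e-12 for day 3). It went from the second of the 10 by mean TPM to the seventh. The files hold 6 transcripts of *Mtf2*, and NM_013827.3 fell from a mean share of 33.0% on day 0 (28.1% to 36.9%) to 15.2% on day 3 (12.3% to 16.6%). The shares of *Mtf2* transcripts passed the test for day 3 against day 0 (edgeR adjusted p = 0.00052), which was also added after the values had been seen.

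*Jarid2*, which docks PRC2 on chromatin that PRC1 has marked, was at 99.4, 96.5 and 119 TPM on day 0 and at 184, 177 and 188 TPM on day 1. It was back at 101, 110 and 100.4 TPM on day 2 and at 84.7, 86.5 and 86.3 TPM on day 3. The day 1 libraries stood above all others, with a log2 fold change of 0.87 ± 0.07 against day 0 (edgeR adjusted p = 4.4e-09), and day 3 was lower than day 0 by 0.38 ± 0.07 (edgeR adjusted p = 0.00012). *Phf19*, another Polycomb-like protein, was the lowest of the 10 in every group. It was at 3.70, 4.82 and 2.70 TPM on day 0 and at 5.39, 6.60 and 6.04 TPM on day 1, a rise of 0.74 ± 0.18 (edgeR adjusted p = 0.0013), and days 2 and 3 overlapped day 0.

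For PRC1, the 2 RING enzymes went opposite ways. *Rnf2*, the main H2A ubiquitin ligase of mESCs, was at 103, 100.4 and 101 TPM on day 0, at 82.2, 79.7 and 82.8 TPM on day 1 and at 68.4, 67.5 and 70.0 TPM on day 3. It fell by 0.65 ± 0.05 on the log2 scale by day 3 (edgeR adjusted p = 2.4e-09), with no overlap between these 3 days. *Ring1*, its relative, was at 8.46, 8.38 and 9.27 TPM on day 0 and at 12.9, 11.8 and 14.0 TPM on day 3, a rise of 0.48 ± 0.12 (edgeR adjusted p = 0.0016). Days 1 and 2 of *Ring1* did not pass against day 0. The ratio of *Rnf2* to *Ring1* TPM was between 10.9 and 12.2 on day 0 and between 4.99 and 5.73 on day 3, so *Rnf2* remained the more abundant.

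The total of *Kdm2b* was at 75.3, 70.3 and 78.8 TPM on day 0, at 108, 111 and 114 TPM on day 1, at 82.0, 80.4 and 78.2 TPM on day 2 and at 75.9, 73.5 and 78.0 TPM on day 3. Only day 1 stood apart in TPM, with a log2 ratio of mean TPM of 0.57 against day 0. In counts the log2 fold change was 0.83 ± 0.06 (edgeR adjusted p = 1.9e-10). On day 2 it was 0.36 ± 0.06 in counts (edgeR adjusted p = 1.1e-05), but 0.10 with limma on log2(TPM + 1) (adjusted p = 0.115). On day 3 the counts were higher than on day 0 by 0.24 ± 0.06 (edgeR adjusted p = 0.00085), but the length-scaled level was not, at 0.02 with limma on log2(TPM + 1) (adjusted p = 0.76). The long transcript yields more counts per molecule, and its share was 82.3% on day 3 against 27.9% on day 0.

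**Figure D2:**
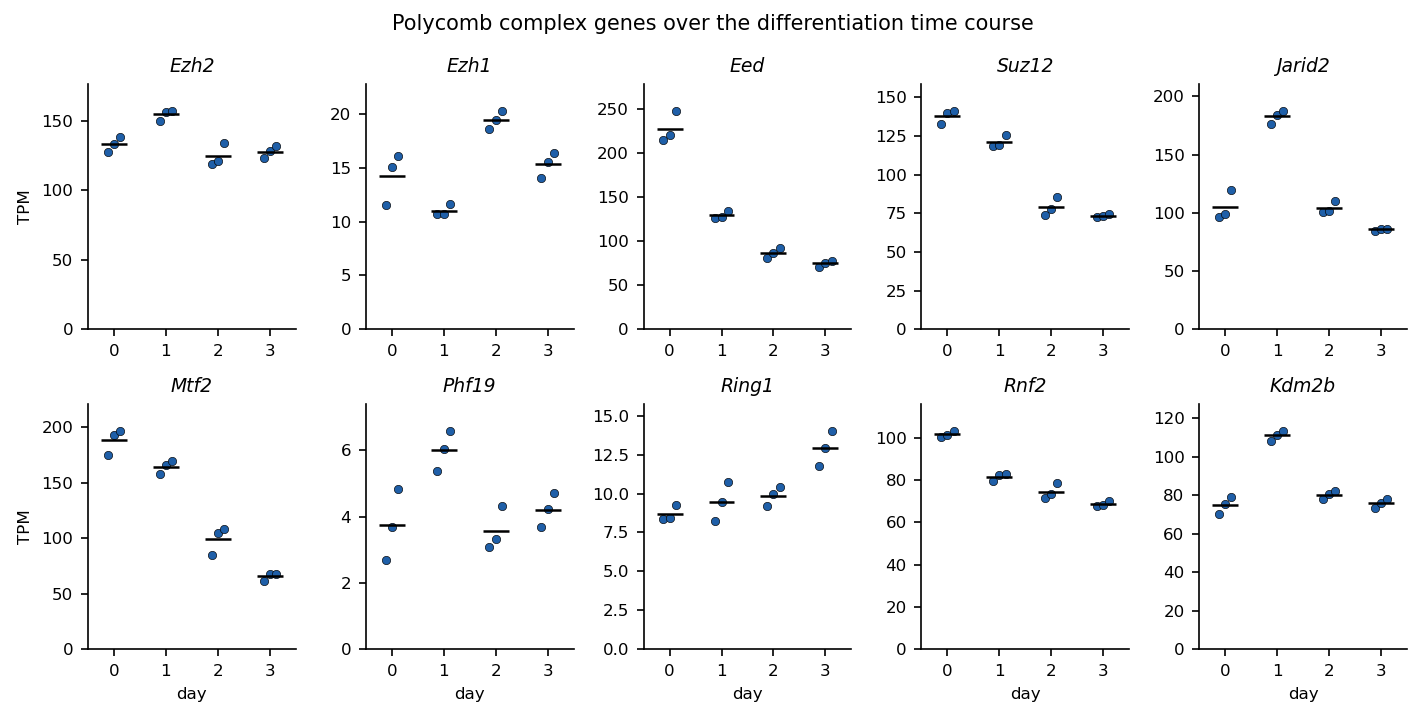
TPM of the 10 genes in each library (points) on days 0 to 3, with the mean of 3 libraries per day as a bar, each panel with its own axis from 0. *Eed*, *Suz12*, *Mtf2* and *Rnf2* go down from day to day, *Jarid2*, *Kdm2b*, *Phf19* and *Ezh2* are highest on day 1, *Ezh1* on day 2 and *Ring1* on day 3.

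The largest number of the 10 genes, 9, was called between days 1 and 2. From day 0 to day 1, 4 of the 10 genes were called higher and 3 lower, where 30.1% of all genes were higher and 30.8% lower. From day 1 to day 2, 8 were lower and 1 was higher, where 29.6% of all genes were lower and 32.5% higher, and the median was -0.58 against 0.02 for all genes. *Jarid2* fell by 0.92 ± 0.07, *Phf19* by 0.86 ± 0.18, *Mtf2* by 0.83 ± 0.08, *Suz12* by 0.73 ± 0.06 and *Eed* by 0.70 ± 0.07 in that step, each with an edgeR adjusted p at or under 0.00038. From day 2 to day 3, 5 were lower and 1 was higher, where 15.6% were lower and 15.9% higher. That count fell from 6 to 3 without day 2 library 2 and without day 3 library 1. Over all genes the calls in that step also fell, from 4525 of 14382 to 2969 of 14632 and to 3219 of 14614. Against day 0, 4 were lower and 2 were higher on day 2, where 32.4% were lower and 34.2% higher. *Kdm2b*, among the 2 called higher, lost that call with limma on log2(TPM + 1). These comparisons share libraries, so their counts are not independent.

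**Figure D3:**
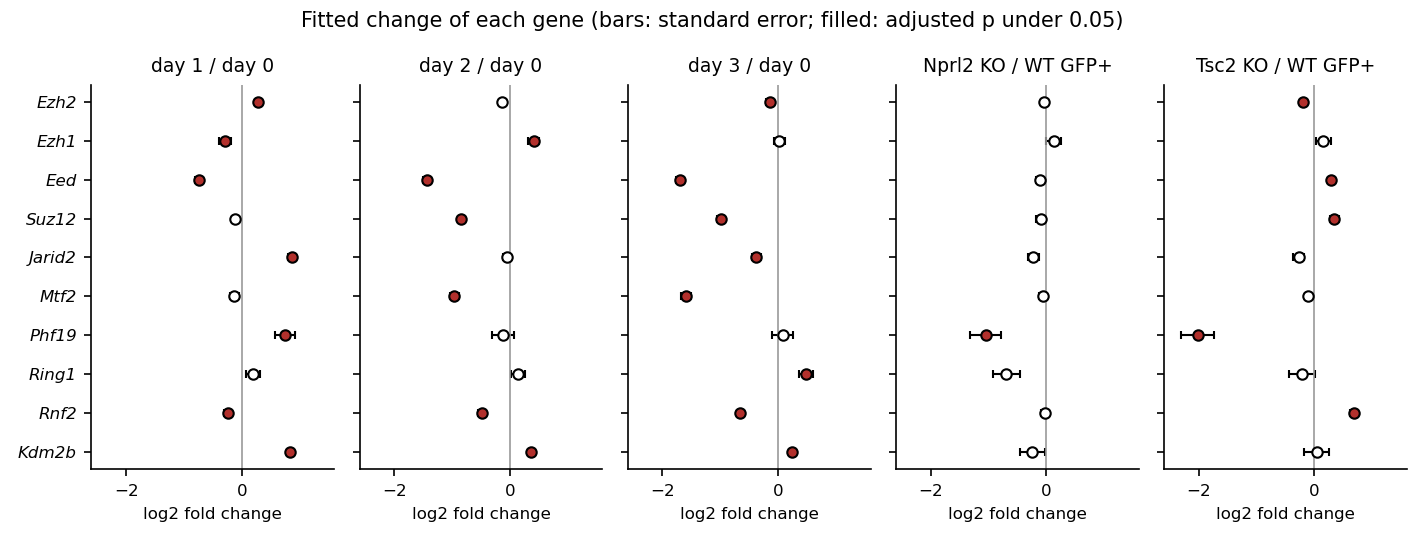
Fitted log2 fold change (x axis) with its standard error for each of the 10 genes in 5 comparisons, filled where the adjusted p was under 0.05 in edgeR's quasi-likelihood test. *Eed*, *Mtf2* and *Suz12* move left from day 1 to day 3, and *Phf19* at -2.02 and *Rnf2* at 0.68 are the outermost values in *Tsc2* KO.

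Among other Polycomb genes, 48 of a list of 49 were tested. Between day 0 and day 3, 26 were lower and 13 higher, with a median log2 fold change of -0.28, where 35.9% of all genes were lower and 35% higher, with a median of -0.01. The counts of each group below stand against those shares and are given as a description. Of the 9 other PRC2 subunits, 6 fell and 1 rose. *Epop*, a PRC2 partner that also binds elongin, fell by 1.59 ± 0.10, and *Lcor*, whose locus encodes another PRC2 partner, fell by 1.17 ± 0.19. Of 12 subunits of canonical PRC1, the form with a chromobox protein, 7 fell and 4 rose. *Bmi1* (Pcgf4), which pairs with Rnf2, fell by 1.24 ± 0.12, and *Phc2*, a polyhomeotic subunit, rose by 1.43 ± 0.11. Of 19 tested genes of variant PRC1, the form that Kdm2b belongs to, 10 fell and 6 rose. *Yaf2*, a subunit that replaces chromobox proteins, rose by 2.08 ± 0.14, and *Bcorl1*, a relative of the Kdm2b partner Bcor, rose by 1.10 ± 0.14, while *Fbrsl1* fell by 1.08 ± 0.09. Of 8 genes that oppose Polycomb marks, 3 fell and 2 rose, and *Kdm6b*, a lysine 27 demethylase, rose by 0.61 ± 0.08. The edgeR adjusted p was at or under 1.4e-05 for each of these named genes.

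Of 35 lineage regulators known as Polycomb targets in mESCs, 16 passed the low-count filter in the time course. From day 0 to day 3, 8 of the 16 were lower and 4 higher, where 35.9% of all genes were lower and 35% higher. The filter can pass a gene on the libraries of a single day, and a target passed only through day 0 could only fall. These counts, and those of the endoderm, mesendoderm and neural markers below, are therefore a description and no result about the targets. *Sox3*, a gene of the early neural plate, rose by 4.06 ± 0.10 on the log2 scale, from a mean of 4.57 to 77.2 CPM (library-scaled counts; edgeR adjusted p = 2.9e-17). *Gata4* and *Eomes*, regulators of endoderm and mesoderm, fell by 1.88 ± 0.25 and 0.87 ± 0.30 (edgeR adjusted p = 1.4e-06 and 0.020). *Cdkn2a*, the cell cycle inhibitor locus, fell by 1.83 ± 0.15 (edgeR adjusted p = 3.0e-09). Of 8 primitive endoderm markers, *Gata4* among them, 6 were lower and 1 was higher. Of 6 mesendoderm markers, *Eomes* among them, 5 were tested. There 2 were higher and 2 lower, with a median of 0.19. Mean TPM rose for *T* (0.80 to 2.21), *Mixl1* (0.25 to 0.78) and *Foxa2* (1.22 to 1.47). It fell for *Eomes* (5.16 to 3.05), *Gsc* (2.43 to 0.09) and *Mesp1* (0.04 to 0). Of 6 early neural markers, 4 were tested and 2 of them were higher on day 3 by the same edgeR test, with a median log2 fold change of 0.35. *Nes*, an intermediate filament gene of neural progenitors, went from a mean of 3.67 to 92.7 TPM and *Sox1* from 3.68 to 7.49 TPM, whereas *Pax6* and *Zic1* differed by -0.23 ± 0.26 and -0.54 ± 0.35 on the log2 scale and did not pass (edgeR adjusted p = 0.45 and 0.17).

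In GFP+ cells, the question was whether loss of *Nprl2* or *Tsc2* altered these genes in cells that still expressed the reporter. In *Tsc2* KO, 3 of the 10 were higher than in wild-type and 2 were lower (edgeR quasi-likelihood, Benjamini-Hochberg over 13725 genes), where 14.9% of all genes were higher and 14.2% lower. In *Nprl2* KO, 1 was lower and 0 were higher in the same edgeR test, where 3.66% were lower and 2.78% higher. The count of higher genes was also 0 at an unadjusted p under 0.05, and 0 with DESeq2 and with limma. The KOs share their wild-type libraries.

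*Rnf2* was at 84.0 and 80.9 TPM in wild-type, at 76.8 and 80.7 TPM in *Nprl2* KO, and at 135 TPM in both *Tsc2* KO libraries. It was higher in *Tsc2* KO by a log2 fold change of 0.68 ± 0.07 (edgeR adjusted p = 1.7e-05). *Rnf2* lies on chromosome 1, and in *Tsc2* KO the 747 genes tested there were shifted by a median of 0.37 on the log2 scale, and 74.4% of them lay above 0. The part of the whole chromosome in the *Rnf2* value was not tested. The other 9 genes lie on chromosomes whose medians were between -0.03 and 0.04.

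*Suz12* was at 183 and 190.01 TPM in wild-type, at 157 and 180.1 TPM in *Nprl2* KO and at 233 and 252 TPM in *Tsc2* KO, higher by 0.35 ± 0.07 in the last (edgeR adjusted p = 0.0038). *Eed* was at 185 and 175 TPM in wild-type, at 164 and 163 TPM in *Nprl2* KO and at 230.1 and 223 TPM in *Tsc2* KO, higher by 0.29 ± 0.06 (edgeR adjusted p = 0.0044). For both core subunits the *Tsc2* KO libraries stood above all others, also in the comparison of the KOs, with 0.45 ± 0.07 for *Suz12* and 0.40 ± 0.06 for *Eed* (edgeR adjusted p = 0.00054 and 0.0004). *Ezh2* was at 110 and 104 TPM in wild-type and at 97.4 and 94.7 TPM in *Tsc2* KO, and its fall by 0.19 ± 0.07 was at the threshold (edgeR adjusted p = 0.05 when rounded). It missed the threshold with DESeq2 (0.14), with limma (0.11), without a low-count filter (0.074) and without any 1 of the 4 libraries in turn. The ratio of *Ezh2* to *Eed* TPM was 0.593 in both libraries of wild-type, whereas *Nprl2* KO had 0.619 and 0.627, and *Tsc2* KO had 0.423 and 0.424. The summed TPM of the 10 proliferation markers was between 2786 and 2858 in wild-type and between 2395 and 2402 in *Tsc2* KO, and its part in the *Ezh2* value was not tested.

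*Phf19* was at 4.96 and 4.24 TPM in wild-type, at 2.82 and 1.57 TPM in *Nprl2* KO and at 1.13 and 1.19 TPM in *Tsc2* KO. The 3 genotypes did not overlap, at between 28 and 109 estimated counts per library. It fell by 2.02 ± 0.29 in *Tsc2* KO (edgeR adjusted p = 0.00027) and by 1.05 ± 0.27 in *Nprl2* KO (edgeR adjusted p = 0.036), and was 0.97 ± 0.30 lower in *Tsc2* KO than in *Nprl2* KO (edgeR adjusted p = 0.026). The call in *Nprl2* KO was lost with DESeq2 (adjusted p = 0.1), with limma (0.065) and when wild-type and *Nprl2* KO were fitted alone (0.052), and it was lost without wild-type library 1, wild-type library 2 or *Nprl2* KO library 2. The difference between the KOs was lost with DESeq2 (adjusted p = 0.076), with limma (0.09), and without *Nprl2* KO library 1, *Tsc2* KO library 1 or *Tsc2* KO library 2. The fall in *Tsc2* KO kept its call in every alternative.

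The remaining 5 genes did not pass in either KO, and the call of 3 of them depended on the settings. *Jarid2* was at 216 and 188 TPM in wild-type, at 175 and 158 TPM in *Nprl2* KO and at 183 and 159 TPM in *Tsc2* KO. On the log2 scale the differences from wild-type were -0.23 ± 0.10 and -0.27 ± 0.10 (edgeR adjusted p = 0.2 and 0.062). In *Tsc2* KO *Jarid2* was called lower with DESeq2 (adjusted p = 0.029), with no low-count filter (edgeR adjusted p = 0.00024), without wild-type library 2 (edgeR adjusted p = 0.039) and without *Tsc2* KO library 1 (edgeR adjusted p = 0.017). In *Nprl2* KO it was called lower with no low-count filter (edgeR adjusted p = 0.0079), as were *Ring1* and *Kdm2b* (edgeR adjusted p = 0.049 for both). With a replicate block, *Jarid2* was called lower in *Nprl2* KO (edgeR adjusted p = 0.0082) and in *Tsc2* KO (edgeR adjusted p = 0.00077). The block also called *Ring1* lower in *Nprl2* KO (edgeR adjusted p = 0.0497). *Ring1* was at 7.36 and 5.50 TPM in wild-type, at 3.78 and 4.06 TPM in *Nprl2* KO and at 6.07 and 5.39 TPM in *Tsc2* KO, with -0.69 ± 0.23 for *Nprl2* KO (edgeR adjusted p = 0.1). *Mtf2* was at 195 TPM in both wild-type libraries and between 173 and 188 TPM in the KOs. *Ezh1* was between 13.3 and 17.3 TPM over the 6 libraries, and *Kdm2b* between 46.0 and 73.1 TPM. The wild-type libraries of *Kdm2b* were at 73.1 and 51.7 TPM, a gap larger than any difference between its genotype means. Between the KOs *Kdm2b* did not pass. It was called higher in *Tsc2* KO with no low-count filter (edgeR adjusted p = 0.0055) and with a replicate block (edgeR adjusted p = 0.019). In that comparison, 3 of the 10 were higher in *Tsc2* KO and 1 was lower, where 17.5% of all genes were higher and 16.6% lower.

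**Figure D4:**
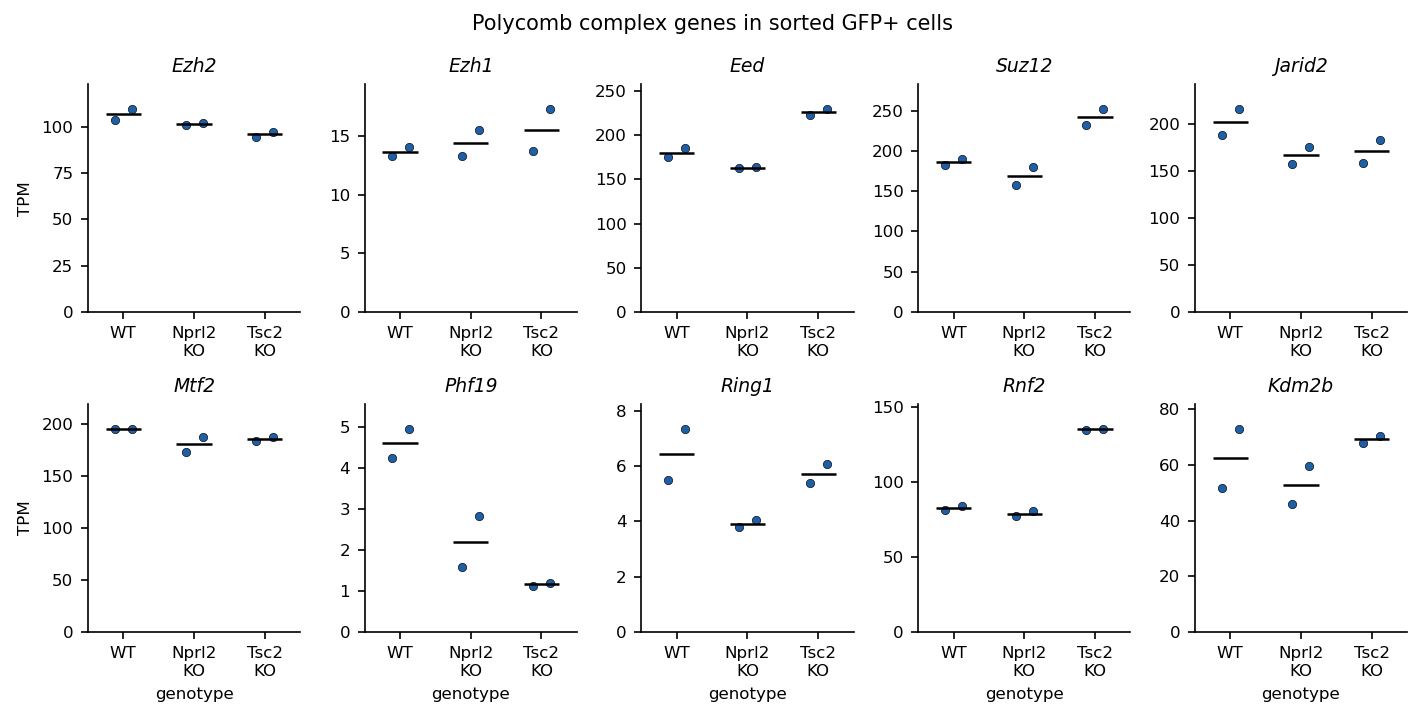
TPM of the 10 genes in each GFP+ library (points), with the mean of 2 libraries per genotype as a bar, each panel with its own axis from 0. *Rnf2*, *Suz12* and *Eed* are highest in *Tsc2* KO and *Phf19* is lowest there.

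Of the 48 other Polycomb genes tested, 6 were higher and 5 lower in *Tsc2* KO, where 14.9% of all genes were higher and 14.2% lower. In *Nprl2* KO 1 was higher and 1 lower, against 2.78% and 3.66% of all genes. In *Tsc2* KO the PRC2 partners *Phf1*, another Polycomb-like protein, and *Epop* rose by 0.94 ± 0.15 and 0.59 ± 0.11, and *Bcorl1* and *Fbrsl1* of variant PRC1 by 0.94 ± 0.21 and 0.65 ± 0.11. *Bcor*, which joins Kdm2b to Pcgf1, fell by 0.81 ± 0.09, the polyhomeotic subunit *Phc1* by 0.54 ± 0.07, and *Tfdp1* and *L3mbtl2*, found with E2f6 in variant PRC1, by 0.54 ± 0.07 and 0.27 ± 0.07. The edgeR adjusted p of these 8 was at or under 0.014. In *Nprl2* KO, *Pcgf2* of canonical PRC1 fell by 0.35 ± 0.08 (edgeR adjusted p = 0.023) and *Pcgf3* of variant PRC1 rose by 0.30 ± 0.08 (edgeR adjusted p = 0.046). Of 15 Polycomb target genes tested, 2 were higher and 2 lower in *Tsc2* KO. Here too the filter can pass a gene on the libraries of a single genotype, so these counts are a description. *Hoxb9* rose by 1.19 ± 0.27 (edgeR adjusted p = 0.0057), and the neural regulators *Pax6* and *Sox3* fell by 2.98 ± 0.52 and 2.44 ± 0.40 (edgeR adjusted p = 0.0078 and 0.00076), all from means under 15 CPM. In *Nprl2* KO the 15 had a median log2 fold change of 0.03.

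**Figure D5:**
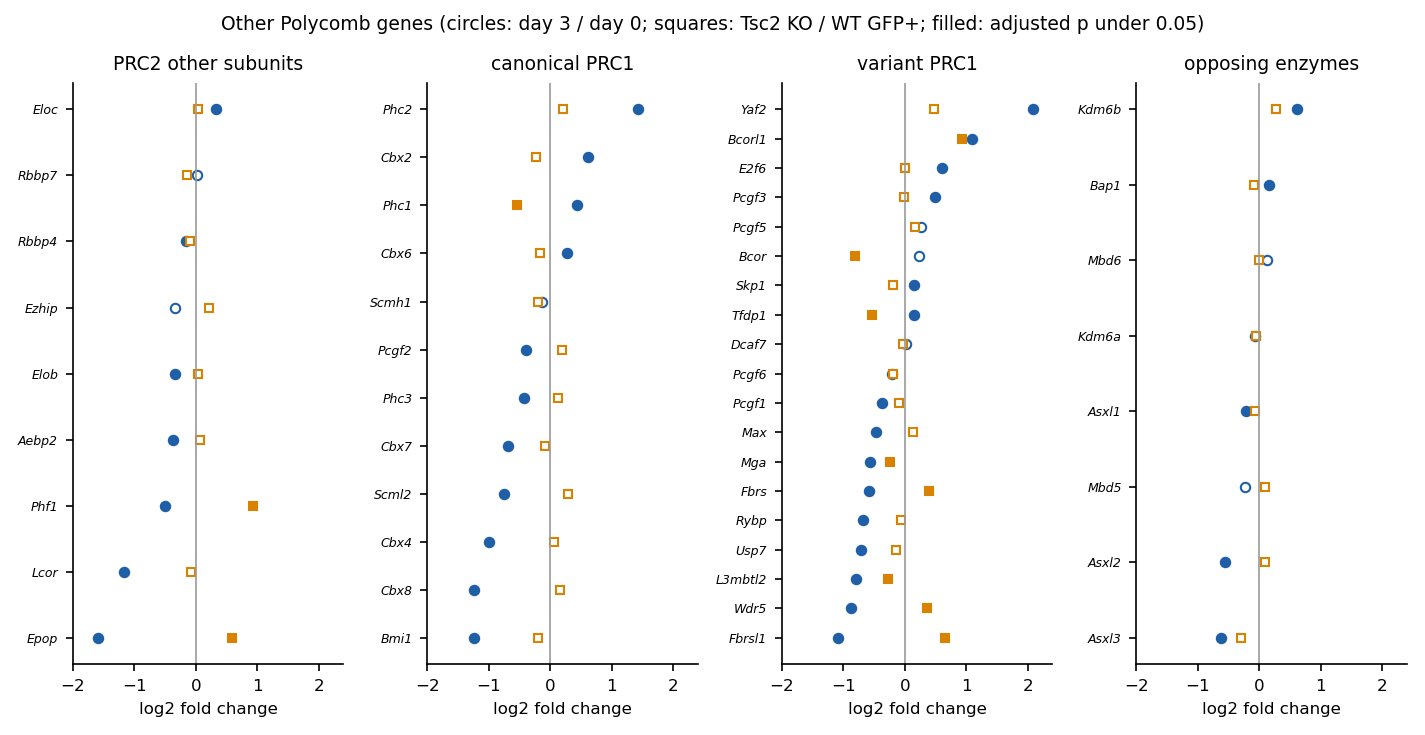
Log2 fold change (x axis) of 48 other Polycomb genes in 4 groups, for day 3 against day 0 (circles) and *Tsc2* KO against wild-type GFP+ cells (squares), filled where the adjusted p was under 0.05. Most filled circles lie left of 0, 26 against 13, and 11 squares are filled.

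The genes with profiles most like those of 5 of the 10 were found among 11466 genes, as the smallest root mean square difference between group means of log2 CPM over 7 groups, each centred within its experiment. For *Ezh2* these were *Ddx39b* (0.017), *Polr2f* (0.018) and *Raver1* (0.026), all 3 closer than any gene to the other 4. For *Jarid2* they included *Fut8* (0.067) and *Zfp93* (0.073), and for *Kdm2b* they were *Mterf4* (0.070), *Zfp558* (0.071) and *Trmt12* (0.075). For *Ezh1* they were *Cd8a* (0.057), *Mob3b* (0.076) and *Zfp397* (0.083). For *Phf19* the nearest was *Runx1t1*, at 0.25. The distance is not scaled for how much a profile moves or for count noise. Distances therefore cannot be compared between the 5 genes as a degree of shared regulation.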

How the data were processed

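RNA-seq of 12 time-course and 6 GFP+ libraries was analysed. Per the submitters' processing notes, the authors ran kallisto 0.42.1 (build mm10) and deposited estimated counts and TPM per RefSeq transcript, without normalization between libraries, and a table of TPM per gene, which equals the sum over transcripts for these genes. The authors' DESeq2 comparisons (fold changes and p-values) were not used. How the time-course libraries were made is not given in the sources used here. GFP+ libraries were stranded and paired-end.

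Of 34079 transcripts, 33713 were assigned to genes by the RefSeq table of GRCm38.p6 and 192 by GENCODE M21. Transcripts without a gene held 1.65% to 3.57% of counts. Counts were summed per gene, rounded and tested with edgeR 4.0.16 in R 4.3.3 (TMM, filterByExpr, robust quasi-likelihood fit, Benjamini-Hochberg, threshold 0.05), each experiment fitted whole. The SE is the log2 fold change divided by the square root of F. The genes and lists were chosen with earlier results of these data known. Named are all 10 genes and, by a rule of size, at most 4 rises and 4 falls among other called Polycomb genes and 3 of each among targets, where mean log2 CPM reached 1 and the groups did not overlap. Some genes that this rule or the likeness measure names are not reported here. *Auts2*, of the variant PRC1 list, was not analysed here. Transcripts were fitted likewise, and their shares with diffSpliceDGE of edgeR, after their values had been seen. On simulated data this recovered 100% of 200 swapped pairs among 2970 genes for day 3 against day 0, with 11.1% false calls. The simulation gave all transcripts the same spread, swapped only pairs of clearly unequal level and left out kallisto's division of reads. It therefore does not measure recovery in these data. Alternatives were DESeq2 1.42.0, upper-quartile normalization, other filters, a replicate block, fits of only the groups compared, limma 3.58.1 on log2(TPM + 1), and each library left out.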

Additional observations from a re-analysis of the deposited data

How the results depend on the processing

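Of 688 values of single genes and *Kdm2b* transcripts under alternatives that kept all libraries, 625 kept their direction and call, 27 lost a call, 24 gained one and 12 changed sign. None of the 12 had passed the test. They were *Jarid2* on day 2 against day 0 with upper-quartile normalization (0.0050), *Ring1* on day 2 against day 1 with upper-quartile normalization (0.024) and limma (0.055), *Ezh2* on day 3 against day 2 with DESeq2 (0.0096), no filter (0.0072) and limma (0.035), and, with limma for *Tsc2* KO against *Nprl2* KO, *Jarid2* (0.034) and *Mtf2* (0.042). limma on the authors' TPM table, added after the data had been seen in place of the planned other gene assignment, which the table per gene did not allow, gave the same 4 limma values. The cause was not tested.

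With all libraries kept, the number of the 10 genes called moved by over 1.5 times only for *Nprl2* KO. It went from 1 to 0 with DESeq2, limma and a fit of the 2 genotypes alone. It went to 3 with a replicate block, which added *Jarid2* and *Ring1*, and to 4 with no filter on low counts. The calls over all genes moved the same way. They were 883 of 13725 in the main fit, 683 of 10847 with DESeq2 and 690 of 13725 with limma on log2(TPM + 1). With the 2 genotypes alone they were 735 of 13268, with the block 2072 of 13725 and with no filter 1667 of 19367. The replicate numbers were not used as pairs, since same-numbered libraries correlated between -0.113 and 0.133 in the time course and between 0.0848 and 0.164 in GFP+ cells, where only 2 numbers exist. The block also gave calls for *Jarid2* in *Tsc2* KO (edgeR adjusted p = 0.00077) and between the KOs for *Ezh2* (0.04), *Kdm2b* (0.019) and its short transcript (0.046). Leaving out each library gave 0 to 1 calls for *Nprl2* KO, 4 to 5 for *Tsc2* KO, 3 to 4 between the KOs, 6 to 7 for day 1, 6 to 7 for day 2 and 7 to 8 for day 3 against day 0, 9 to 9 for day 2 against day 1 and 3 to 7 for day 3 against day 2. Of uncalled values, leaving out each library also gave both signs for *Jarid2* (-0.13 to 0.056) and *Phf19* (-0.30 to 0.10) on day 2 against day 0, *Ezh1* (-0.11 to 0.12) and *Phf19* (-0.10 to 0.31) on day 3 against day 0, *Ring1* on day 2 against day 1 (-0.14 to 0.024) and *Ezh2* on day 3 against day 2 (-0.044 to 0.048), for *Kdm2b* in *Nprl2* KO (-0.47 to 0.037), for *Ezh1* (-0.0052 to 0.30), *Kdm2b* (-0.19 to 0.32) and *Ring1* (-0.38 to 0.00036) in *Tsc2* KO, and between the KOs for *Ezh1* (-0.13 to 0.17), *Jarid2* (-0.16 to 0.082) and *Mtf2* (-0.091 to 0.017).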
